A study of Mus musculus with 16 samples.

Results

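The epidermal differentiation complex is a block of genes on mouse chromosome 3 that is read in the upper layers of the epidermis. Its members were taken here as the genes of the array whose symbol begins with Lce, Sprr, Flg or S100a, together with Lor, Ivl, Rptn, Tchh, Crct1 and Hrnr, each represented by whichever of its probesets was brightest on average. This gave 43 members out of 18193 genes, and all 43 lie on chromosome 3 in RefSeq. They comprise 15 Lce genes, 9 Sprr genes, 12 S100a genes, 4 fused-type genes (Flg, Hrnr, Rptn and Tchh) and the single genes Lor, Ivl and Crct1.

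Tumors of the skin were collected from FVB mice in which the keratin 14 promoter, active in the basal layer of stratified epithelia, drives the Cre recombinase. The 7 p53 tumors came from k14Cre;p53loxP/loxP mice and the 5 pRbp53 tumors from k14Cre;p53loxP/loxP;pRbloxP/loxP mice, and the 4 control skins were normal skin of the same background. By the labelled histology, 3 tumors were poorly differentiated (p53 tumors 2, 4 and 5), 6 were undifferentiated or spindle cell carcinomas (p53 tumors 3 and 6 and pRbp53 tumors 1, 2, 3 and 5) and 3 were mixed (p53 tumors 1 and 7 and pRbp53 tumor 4). The age of the animals is not given in the sources used here, and no poorly differentiated tumor was a pRbp53 tumor.

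Keratinocytes that leave the basal layer replace their plasma membrane by the cornified envelope, a shell of proteins joined to one another by transglutaminases. Loricrin and the LCE proteins are laid down late, involucrin forms an early scaffold, the small proline-rich (SPRR) proteins bridge the others, and filaggrin, hornerin and repetin come from keratohyalin granules. The S100 proteins of the same block bind calcium and signal inside and outside cells, and several of them are also made outside the epidermis.

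Some arrays stood apart from the others. The actin 3′ minus 5′ signal, a sign of broken RNA when high, was 1.67 on the log2 scale in p53 tumor 7 and 1.33 in control skin 3, against 0.21 to 0.68 in the other arrays. Control skins 2 and 4 were the closest of all arrays (SD of their difference over all probesets, 0.218, against 0.414 for the next pair). Rb1, the gene deleted in the pRbp53 mice, averaged 7.70 ± 0.35 in pRbp53 tumors (SD, n = 5), 8.06 ± 0.33 in p53 tumors (n = 7) and 9.26 ± 0.25 in control skin (n = 4), and its probeset need not lie in the deleted part. The milk protein gene Csn2 reached 11.7, 8.75 and 13.7 in p53 tumors 2, 4 and 5, which are all 3 poorly differentiated tumors, 10.8 in p53 tumor 3 and 9.83 in control skin 3, and lay between 3.1 and 4.5 elsewhere. In p53 tumor 5, labelled a poorly differentiated carcinoma, the basal keratinocyte markers Krt5 and Krt14 were low, at 4.8 and 4.4, against 10.8 to 12.9 in the other 2 poorly differentiated tumors. Krt15, Col17a1, Lamb3 and Cdh3 were also lower there than in those 2 tumors. The basal markers Itga6 and Dst, at 11.37 and 10.35, lay above those 2 tumors, and Itgb4 was 8.78, against 9.50 and 9.41.

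Promoter sequences are shown for 4 members that represent the classes followed below: Lor and Lce1m, which were far lower in every tumor, Sprr1a, which some tumors kept, and S100a8, the member that rose. RefSeq (GRCm38.p6) gave promoters for 38 of the 43 members. The lines hold the 250 bases before the start of the gene, in its own direction. Capitals mark the TATA box (TATAAA) and the AP-1 motif (TGANTCA, where N is any base) on either strand. The coordinates are chr3:92083143-92083392 (minus strand) for Lor, chr3:93019062-93019311 (minus strand) for Lce1m, chr3:92485882-92486131 (minus strand) for Sprr1a and chr3:90668821-90669070 (plus strand) for S100a8.
Lor: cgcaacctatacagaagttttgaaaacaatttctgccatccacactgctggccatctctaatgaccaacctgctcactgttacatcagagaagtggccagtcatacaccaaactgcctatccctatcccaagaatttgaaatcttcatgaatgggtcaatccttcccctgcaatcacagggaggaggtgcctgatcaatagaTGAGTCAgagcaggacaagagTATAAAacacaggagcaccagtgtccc
Lce1m: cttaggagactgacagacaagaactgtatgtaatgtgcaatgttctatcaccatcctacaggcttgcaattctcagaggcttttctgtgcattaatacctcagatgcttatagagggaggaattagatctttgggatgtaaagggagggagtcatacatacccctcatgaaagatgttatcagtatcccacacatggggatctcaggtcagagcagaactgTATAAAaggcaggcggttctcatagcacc
Sprr1a: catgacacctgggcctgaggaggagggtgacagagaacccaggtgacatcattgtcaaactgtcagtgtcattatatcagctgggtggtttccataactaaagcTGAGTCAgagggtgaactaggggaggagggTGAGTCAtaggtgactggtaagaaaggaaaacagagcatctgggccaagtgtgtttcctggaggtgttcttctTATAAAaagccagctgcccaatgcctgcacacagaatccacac
S100a8: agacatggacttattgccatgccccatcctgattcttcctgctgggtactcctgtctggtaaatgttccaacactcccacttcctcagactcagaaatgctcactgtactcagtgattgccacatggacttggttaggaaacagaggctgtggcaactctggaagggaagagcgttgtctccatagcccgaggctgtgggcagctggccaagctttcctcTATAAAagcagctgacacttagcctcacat

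Lor carried a TATA box beginning 27 bases before its start and an AP-1 motif beginning 48 bases before it. Sprr1a carried AP-1 motifs 146 and 116 bases before its start and a TATA box 43 bases before it. Lce1m and S100a8 had a TATA box at 29 and 30 bases and no AP-1 motif in this window. The whole windows of 300 bases run from 250 bases before the start. Over them, the TATA box was found in 20 of the 38 members (52.6%), against 15.7% of all 27025 genes with a promoter in the table. The AP-1 motif was found in 13 of the 38 (34.2%), against 8.97% of all genes. The other motifs searched were not more frequent than among all genes. CACCC, a motif of Klf factors, was found in 21 of the 38 (55.3%), against 59.8% of all genes. CCAAT was found in 12 of the 38 (31.6%), against 41.1%. By family, the TATA box was found in 8 of 8 Sprr promoters and in 5 of the 6 of Lor, Ivl and the fused-type genes. It was found in 5 of 10 S100a promoters and in only 2 of 14 Lce promoters, Lce1d and Lce1m. Lce1m is thus not typical of the Lce genes in this. The AP-1 motif was found in 7 of 8 Sprr promoters and in 4 of the 6 of Lor, Ivl and the fused-type genes. It was found in 2 of 10 S100a promoters and in 0 of 14 Lce promoters. The only match was TGAATCA in Sprr1b, Flg and S100a16 and TGATTCA in Rptn, and the other members with the motif held TGAGTCA or TGACTCA. A matching string of letters is a description of the sequence and not a bound site.

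In 5 Sprr2 genes the AP-1 motif lay at nearly the same place, 193 to 198 bases before the start. The lines show that motif in capitals with 17 bases on either side, since 4 of these genes moved together in a single tumor described below. The stretches are on the plus strand of chromosome 3 at chr3:92338930-92338970 (Sprr2d), chr3:92364973-92365013 (Sprr2f), chr3:92385470-92385510 (Sprr2h), chr3:92407781-92407821 (Sprr2i) and chr3:92432369-92432409 (Sprr2k, which holds a second AP-1 motif).
Sprr2d: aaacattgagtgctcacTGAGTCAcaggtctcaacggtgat
Sprr2f: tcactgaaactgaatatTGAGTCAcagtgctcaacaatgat
Sprr2h: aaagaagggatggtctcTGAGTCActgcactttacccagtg
Sprr2i: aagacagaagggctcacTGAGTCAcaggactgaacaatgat
Sprr2k: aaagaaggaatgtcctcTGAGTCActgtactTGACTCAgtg

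The first comparison asked how the complex differs between tumors of either genotype and normal skin. Lor, Ivl, Crct1, 10 of the 11 Lce1 genes and the fused-type genes Hrnr and Flg averaged far below control skin in the tumors, and S100a8 averaged above it. Of the 43 members, 18 were lower in tumors, 1 was higher and 24 did not pass the test (limma, Benjamini-Hochberg adjusted p under 0.05). Among all genes tested, 9.17% were lower and 7.57% higher at this threshold. The median difference over the members was -0.70 on the log2 scale, against 0.06 over all genes. In 14 members every tumor lay below every control skin, which was so for 5.54% of all genes, and in 0 members did every tumor lie above every control skin (3.86% of all genes). In bulk tissue, fewer cells of a type and less RNA per cell cannot be told apart.

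**Figure D1:**
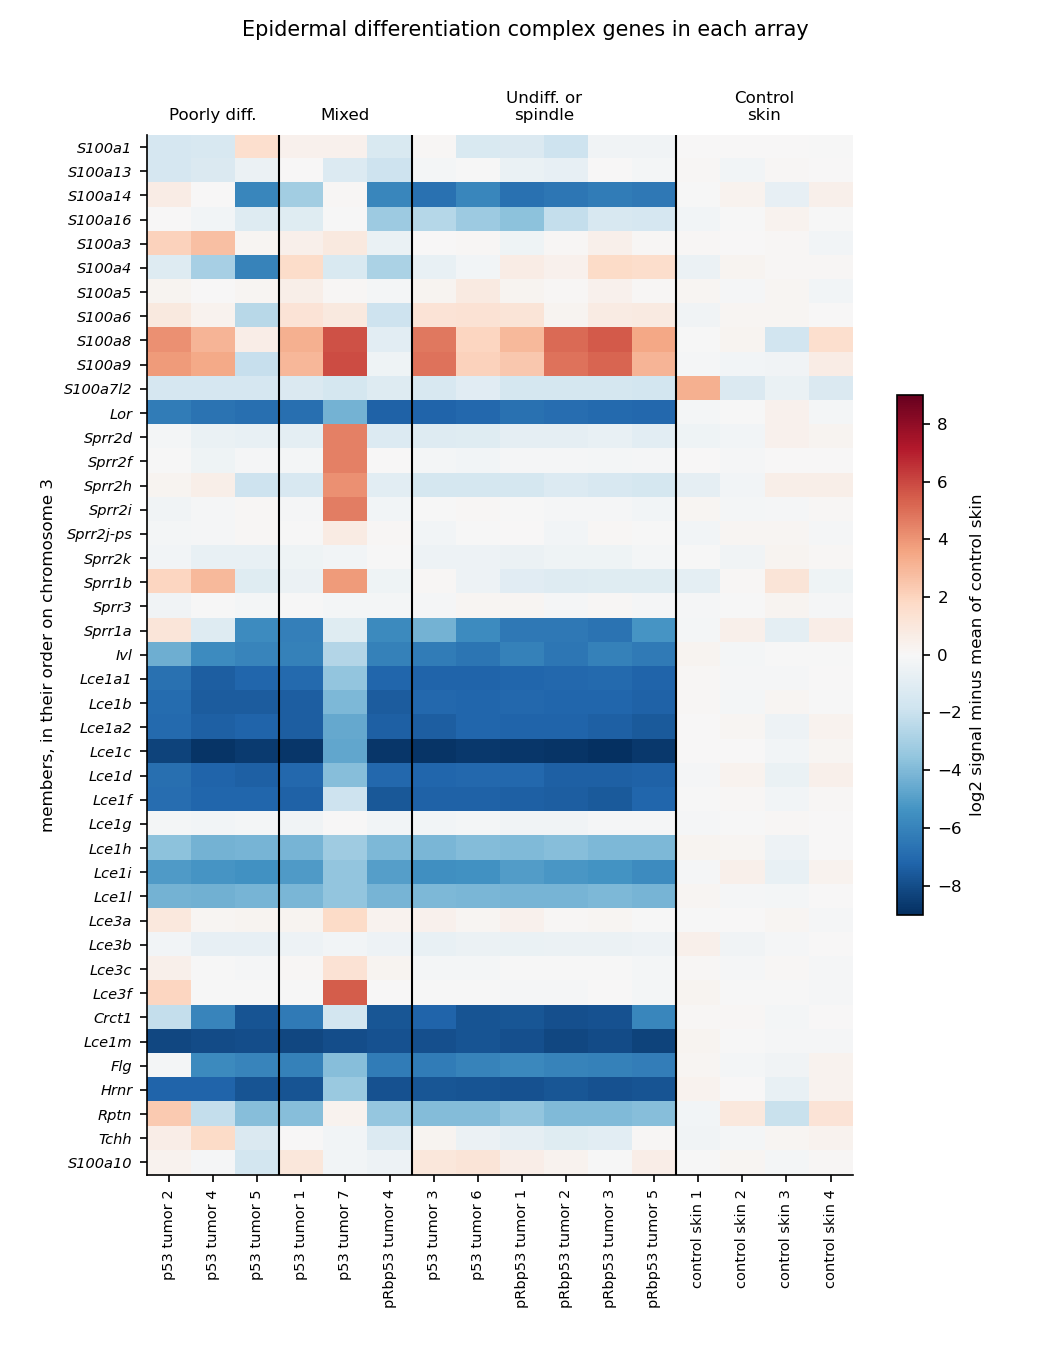
Log2 signal of each of the 43 members (rows, in their order on chromosome 3) in each array (columns, by histology, control skin at the right), as the difference from the mean of the 4 control skins; blue is lower and red higher. A block of blue covers Lor, Ivl, 10 of the 11 Lce1 genes, Crct1, Flg and Hrnr in nearly all tumors, S100a8 and S100a9 are red in most, and p53 tumor 7 is red at Lce3f and the Sprr2 genes.

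Lor encodes loricrin, the main protein of the cornified envelope. Its log2 signal ran from 5.69 to 8.73 with a median of 6.17 in the 12 tumors, against 12.81, 12.98, 13.33 and 12.81 in control skins 1 to 4. The groups did not overlap, and the highest tumor was p53 tumor 7. The difference was -6.66 ± 0.40 (SE; adjusted p = 4.99e-09).

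Ivl encodes involucrin, the early scaffold of the envelope. It ran from 3.61 to 7.56 with a median of 4.08 in tumors, against 10.43, 9.99, 10.17 and 10.11 in control skins. It differed by -5.72 ± 0.55 (adjusted p = 1.81e-06), again with no overlap. Crct1, a small cysteine-rich gene among the Lce genes, ran from 4.77 to 11.02 with a median of 5.22 in tumors, against 12.48 to 12.75 in control skins. Its difference was -6.33 ± 1.06 (adjusted p = 0.000758), and p53 tumors 2 and 7, at 10.52 and 11.02, came nearest to control skin.

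Of the 11 Lce1 genes, which encode late cornified envelope proteins, 10 were lower in tumors, and the median over the 11 was -6.82. Lce1c ran from 3.05 to 7.31 with a median of 3.25 in tumors, against 12.03, 11.99, 11.74 and 12.16 in control skins. It differed by -8.39 ± 0.57 (adjusted p = 2.9e-08). Lce1m ran from 2.99 to 3.54 with a median of 3.29 in tumors, against 11.57, 11.25, 11.21 and 11.17 in control skins. It differed by -8.03 ± 0.10 (adjusted p = 4.43e-17), and unlike the other members just named it was as low in p53 tumor 7, at 3.35, as in the rest. Lce1a2 ran from 4.66 to 7.58 with a median of 4.89 in tumors, against 12.21, 12.34, 11.73 and 12.49 in control skins, and differed by -7.07 ± 0.39 (adjusted p = 2.06e-09). The exception was Lce1g, which was low in all 16 arrays (3.17 to 3.51 in tumors, 3.37 to 3.61 in control skin). Lce1 genes are alike in sequence, and 5 of the 11 were read from probesets that can bind several transcripts, so their values are not fully separate.

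Of the fused-type genes, Hrnr and Flg were lower. Hrnr, which encodes hornerin, ran from 2.88 to 7.43 with a median of 2.98 in tumors, against 11.04, 10.81, 10.06 and 11.08 in control skins, and differed by -7.32 ± 0.63 (adjusted p = 5.33e-07). Flg, which encodes the keratin-bundling protein filaggrin, ran from 2.83 to 8.94 with a median of 3.13 in tumors, against 9.30, 8.96, 8.82 and 9.42 in control skins. Its difference was -5.36 ± 0.85 (adjusted p = 0.000464), and the groups overlapped through p53 tumor 2 alone, whose Flg signal lay within the range of control skin.

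Rptn, which encodes repetin, did not pass (-2.81 ± 1.05, adjusted p = 0.0932). It was 9.18 in p53 tumor 2, 7.14 in p53 tumor 7 and 4.73 in p53 tumor 4, between 2.86 and 3.38 in the other tumors, and 6.63, 7.81, 4.87 and 8.06 in control skins. Without p53 tumor 2 it was lower, at -3.27 (adjusted p = 0.00775), and likewise without p53 tumor 7 (-3.09, adjusted p = 0.0451). These were its highest tumors, so leaving either out could only move the difference further down. Tchh, a hair follicle member, differed by -0.28 and did not pass.

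**Figure D2:**
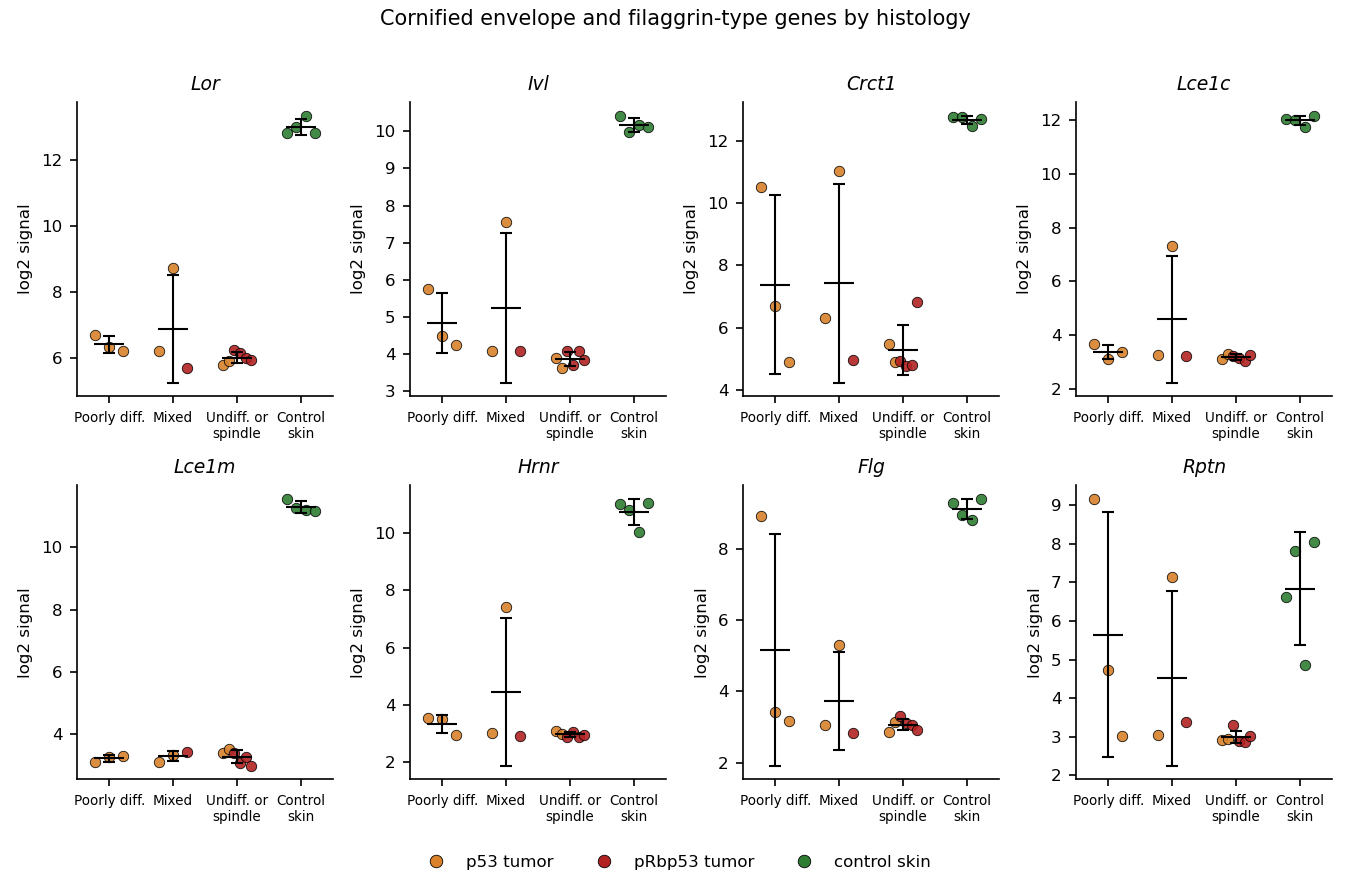
Log2 signal of 8 envelope and filaggrin-type genes by histology, tumors at the left and control skin at the right; points are single arrays coloured by genotype, and lines are the mean ± SD. Lor, Ivl, Crct1, Lce1c, Lce1m and Hrnr lie below all control skins in all 12 tumors, while Flg in p53 tumor 2 (8.94) and Rptn in p53 tumors 2 and 7 (9.18 and 7.14) lie among the control skins or above them.

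The Sprr family behaved otherwise: 2 of 9 members were lower in tumors and 7 did not pass. Sprr1a ran from 4.46 to 12.20 with a median of 5.49 in tumors, against 10.94, 11.62, 10.23 and 11.75 in control skins. It differed by -4.46 ± 1.26 (adjusted p = 0.0274), with p53 tumors 2, 4 and 7 at 12.20, 9.98 and 10.06. This call was lost when any single control skin was left out (adjusted p from 0.053 without control skin 3 to 0.0851 without control skin 4, and 0.0729 and 0.0821 without control skins 1 and 2). Sprr2k, at 5.69 to 6.28 in tumors and 6.06 to 6.57 in control skin, was lower by a small step of -0.38 ± 0.11 (adjusted p = 0.0355). That call was lost without any of 6 arrays (control skins 1, 3 and 4, p53 tumors 3 and 6 and pRbp53 tumor 1, adjusted p 0.0514 to 0.144). Sprr2h ran from 3.76 to 9.74 with a median of 4.19 in tumors, against 4.85, 5.41, 6.15 and 6.20 in control skins, a difference of -0.70 ± 0.83 (adjusted p = 0.641).

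In the order of the genes on the chromosome, 15 of the 18 lower members lay beside another lower one, and Lor, Sprr2k and Lce3b stood alone between members that did not pass. From Sprr1a through Lce1l, 11 of 12 members were lower, Lce1g being the exception. Of the 4 Lce3 genes that follow, only Lce3b was lower (-0.53, a call that was lost without control skin 1), while Crct1, Lce1m, Flg and Hrnr beyond them were lower again. Of the 12 S100a genes, which flank the block on both sides, 0 were lower at the adjusted threshold, and 3 of them (S100a14, S100a16 and S100a7l2) were lower at an unadjusted p under 0.05, against 14.7% of all genes.

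**Figure D3:**
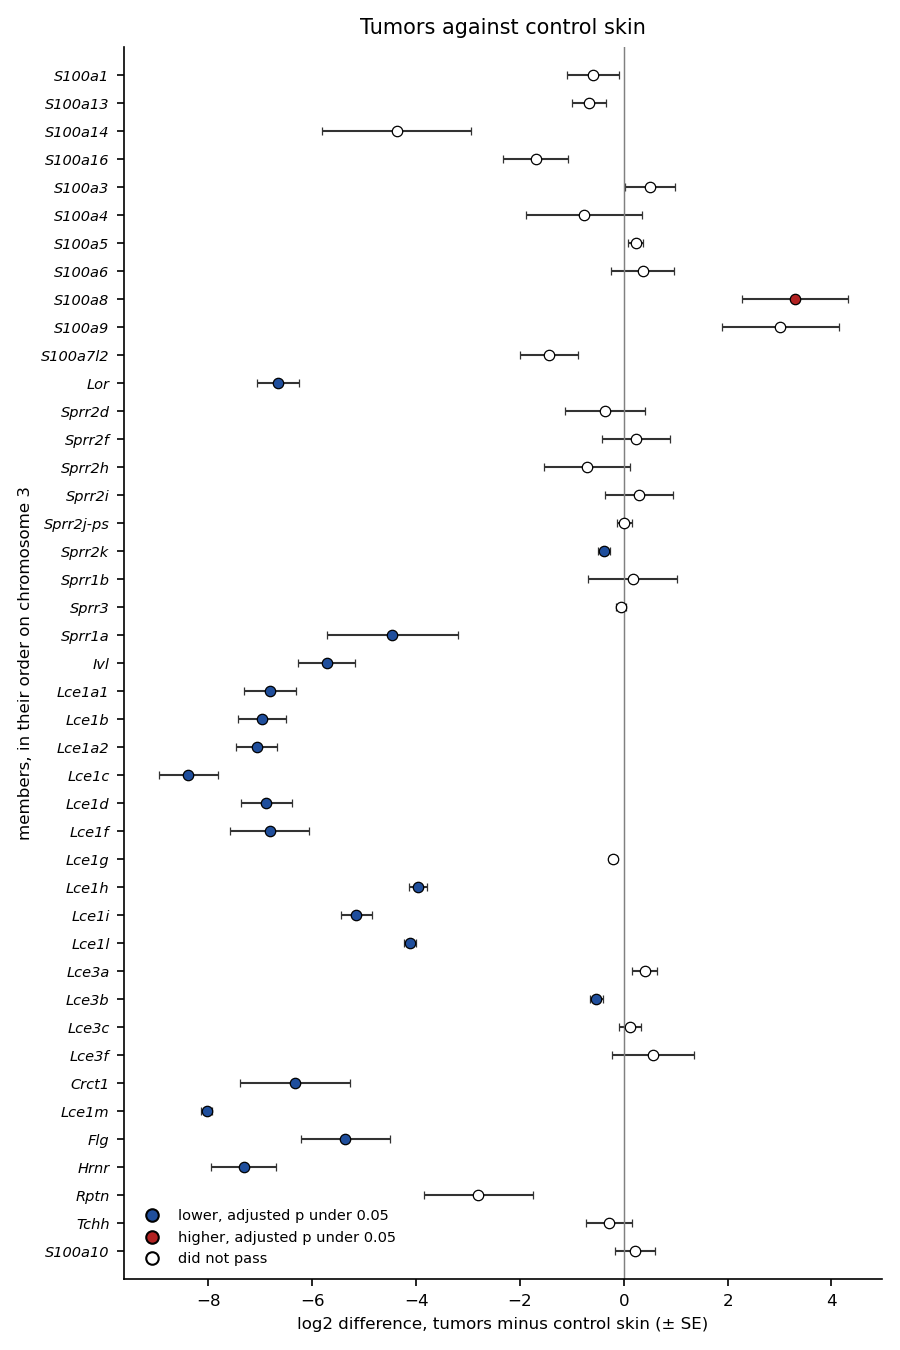
Log2 difference of tumors (n = 12) minus control skin (n = 4) with its SE for each of the 43 members, in their order on chromosome 3; filled points passed the test. The 18 lower members include Lor, Ivl, 10 Lce1 genes, Crct1, Flg and Hrnr, and S100a8 at +3.29 is the single higher one.

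For 8 members the array holds more than 1 probeset. The other Lor probesets differed by -9.27 and -1.11, the other Ivl probeset by -3.19, the other Lce1a1 probeset by -7.72 and the other Lce1f probeset by -3.01, and all of these passed in the same direction. The other Rptn probesets, at 0.05 and 0.21, did not pass and did not follow the one used here. For S100a1, S100a10 and S100a16 no probeset passed.

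The genes that build the envelope from outside the complex moved in the same direction. From a list of 27 transglutaminases, suprabasal keratins, desmosomal proteins, proteases and lipid enzymes, 26 were measured and 25 were lower in tumors, with Casp14 the exception (-0.13). Krt1, a suprabasal keratin, averaged 4.92 ± 1.95 in tumors and 12.66 ± 0.15 in control skin (SD, n = 12 and 4) and differed by -7.74 ± 0.94 (adjusted p = 3.01e-05). Tgm1, the transglutaminase that crosslinks envelope proteins, differed by -2.14 ± 0.52 (adjusted p = 0.0118). Among 9 measured basal keratinocyte markers 3 were lower (Krt5, Krt15 and Col17a1), and their mean log2 signal ran from 5.83 to 11.4 in tumors and from 10.7 to 10.8 in control skin. All 12 measured skeletal muscle markers and all 6 measured adipocyte markers were lower as well, and the muscle markers had a mean of 4.44 to 8.57 in tumors and of 12.99 to 13.2 in control skin. The part of these cell types in the losses was not tested.

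Transcription factors that act on the complex were partly lower. Of 23 measured regulators, 7 were lower in tumors and 0 higher. Grhl3, a grainyhead-like factor needed for barrier formation, differed by -3.71 ± 0.73 (adjusted p = 0.00271), and Zfp750, a zinc finger factor of terminal differentiation, by -3.13 ± 0.72 (adjusted p = 0.00831). Ovol1, Grhl1, Gata3, Cebpa and Satb1 were the others.

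S100a8 was the only member that was higher in tumors. S100a8 and S100a9 encode the subunits of calprotectin, which is abundant in neutrophils and is made by keratinocytes in wounded or inflamed skin. S100a8 ran from 6.08 to 12.71 with a median of 10.35 in tumors, against 6.94, 7.27, 5.30 and 8.50 in control skins, and differed by +3.29 ± 1.02 (adjusted p = 0.0427), a 9.80-fold higher signal. S100a9 ran from 4.40 to 12.38 with a median of 9.75 in tumors, against 6.39, 6.22, 6.19 and 7.21 in control skins, and differed by +3.02 ± 1.13, which did not pass (adjusted p = 0.094). For both genes 10 of the 12 tumors lay above every control skin, and the exceptions were p53 tumor 5 and pRbp53 tumor 4.

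Both values turned on single arrays. The S100a8 call was lost without any of control skins 1, 2 and 3, p53 tumors 1, 2, 3 and 4 and pRbp53 tumors 1, 2, 3 and 5 (adjusted p from 0.0523 without p53 tumor 4 to 0.16 without control skin 3). S100a9 passed without p53 tumor 5 (+3.48, adjusted p = 0.0127) or without pRbp53 tumor 4 (+3.33, adjusted p = 0.0497). Since these tumors were the lowest for S100a9, leaving either out could only widen its difference. Of 11 measured neutrophil markers 0 passed between tumors and control skin, and their mean signal ran from 5.33 to 7.51 in tumors and from 5.07 to 5.40 in control skin. The marker Ltf was 10.5, 11.4 and 12.4 in p53 tumors 2, 4 and 5, which also had high Csn2. It was 4.86 to 6.44 in the other tumors and 4.56 to 6.25 in control skin. Ltf thus raised the marker means of p53 tumors 2, 4 and 5. The median difference over the 11 markers was +1.14, and the lowest tumor means were 5.33 in pRbp53 tumor 4 and 5.52 in p53 tumor 5. The granule genes Elane and Mpo, which lay below that median, averaged 4.90 ± 0.23 and 5.34 ± 0.60 in tumors and 4.82 ± 0.21 and 5.07 ± 0.69 in control skin. In undifferentiated or spindle tumors against control skin, 6 of the 11 markers were higher, among them Csf3r, the receptor for granulocyte colony-stimulating factor (+1.87 ± 0.36, adjusted p = 0.00231). Of 7 measured genes of stressed keratinocytes 1 was higher in tumors (the protease inhibitor gene Slpi, +3.45 ± 0.74, adjusted p = 0.00496), 2 were lower (Il1f9 and Serpinb2) and 4 did not pass, with a median difference of -1.79. The part of neutrophils in the S100a8 and S100a9 values was not tested.

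The other S100a genes were spread on both sides of 0. S100a14, made in epithelia, ran from 4.29 to 11.73 with a median of 5.15 in tumors, against 10.99, 11.36, 10.26 and 11.50 in control skins. The tumors fell apart into p53 tumors 2, 4 and 7 at 11.10 to 11.73, p53 tumor 1 at 7.90 and the other 8 at 4.29 to 5.17. The difference was -4.37 ± 1.44 (adjusted p = 0.0567), and it passed without p53 tumor 2 (-4.83, adjusted p = 0.0201), p53 tumor 4 (-4.78, adjusted p = 0.0267) or p53 tumor 7 (-4.78, adjusted p = 0.0232). Since these tumors were the highest for S100a14, leaving any of them out could only move its difference further down. S100a6 and S100a10 bind annexins and are made in many cell types. S100a6 ran from 9.99 to 13.74 with a median of 13.30 in tumors, against 12.15, 12.62, 12.64 and 12.48 in control skins, and S100a10 from 10.06 to 12.84 with a median of 12.02, against 11.66, 11.83, 11.48 and 11.76. They differed by +0.36 ± 0.60 and +0.21 ± 0.38 and did not pass, and for both genes p53 tumor 5 was the lowest array.

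The next comparison addressed histological grade within the tumors. Between the 6 undifferentiated or spindle tumors and the 3 poorly differentiated ones, 0 of 43 members were lower and 1 was higher in limma at an adjusted p under 0.05, where 4.64% of all genes were lower and 4.49% higher. At an unadjusted p under 0.05, 12 members were lower, against 12.6% of all genes. Without overlap, 3 members lay below (Ivl, S100a14 and S100a16, 7.49% of all genes) and 1 above (S100a4, 8.45% of all genes). The median difference was -0.10 over the members and 0.02 over all genes.

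S100a4, also called metastasin, is made by fibroblasts and macrophages and by motile tumor cells, and it was the member that rose with grade. Its log2 signal was 11.43 and 11.79 in p53 tumors 3 and 6 and 12.76, 12.48, 13.77 and 13.64 in pRbp53 tumors 1, 2, 3 and 5, which are the undifferentiated or spindle tumors, against 10.89, 9.08 and 6.08 in the poorly differentiated p53 tumors 2, 4 and 5. Every undifferentiated or spindle tumor lay above every poorly differentiated one. The difference was +3.96 ± 0.96 (adjusted p = 0.0421), or 15.6-fold. Control skin lay among the undifferentiated or spindle tumors, at 11.57 to 12.34, so the poorly differentiated tumors were the low ones.

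The S100a4 call passed without p53 tumor 2 or 3 and was lost without any of the other 7 arrays. The adjusted p was then 0.103 and 0.069 without p53 tumors 4 and 5, 0.0617 without p53 tumor 6, and 0.0768, 0.0696, 0.0739 and 0.0844 without pRbp53 tumors 1, 2, 3 and 5. Of 10 fibroblast markers 6 were higher in undifferentiated or spindle tumors (Col1a1, +2.91 ± 0.67, adjusted p = 0.0346), and their mean signal ran from 11.2 to 12.95 in those tumors and from 8.36 to 10.3 in poorly differentiated tumors. Of 10 macrophage markers 9 were higher (Csf1r, +1.98 ± 0.20, adjusted p = 0.000817), with means from 9.38 to 10.97 in undifferentiated or spindle tumors and from 7.71 to 8.46 in poorly differentiated ones. Of 6 mammary gland markers 3 were lower (Csn1s1, Csn3 and Lalba), with means from 4.03 to 7.43 in undifferentiated or spindle tumors and from 7.41 to 10.2 in poorly differentiated tumors. The part of these cell types in the S100a4 value was not tested.

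**Figure D4:**
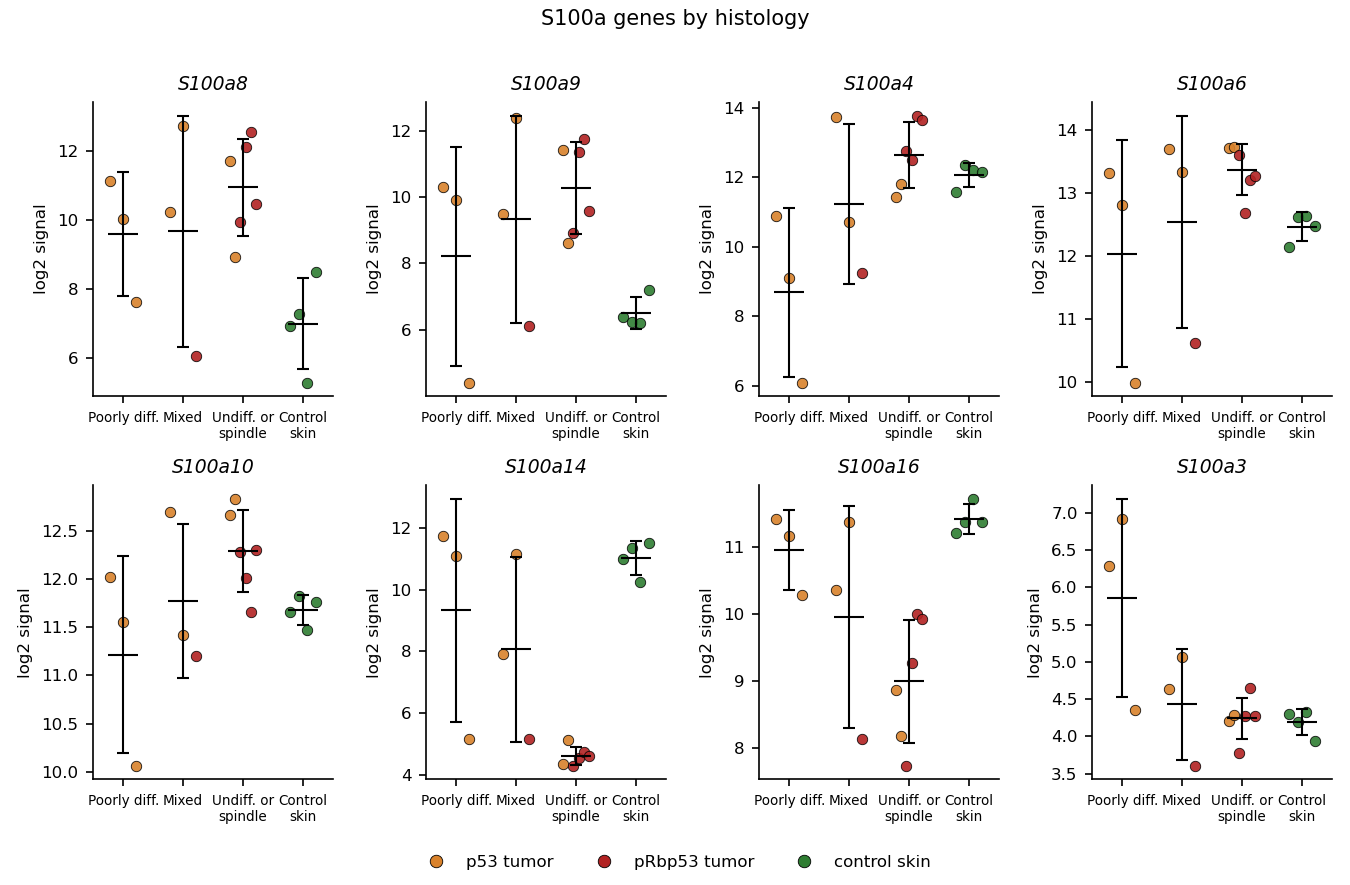
Log2 signal of 8 S100a genes by histology, tumors at the left and control skin at the right; points are single arrays coloured by genotype, and lines are the mean ± SD. S100a4 lies between 11.43 and 13.77 in undifferentiated or spindle tumors and between 6.08 and 10.89 in poorly differentiated ones, and S100a14 between 4.29 and 5.13 and between 5.17 and 11.73.

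Lor, Lce1c and Lce1m, far below control skin in every tumor, did not pass between the grades. Lor ran from 5.78 to 6.23 in undifferentiated or spindle tumors, against 6.69, 6.34 and 6.20 in p53 tumors 2, 4 and 5, a difference of -0.41 ± 0.14 (adjusted p = 0.131). Lce1c and Lce1m averaged 3.19 ± 0.10 and 3.28 ± 0.21 in undifferentiated or spindle tumors (SD, n = 6) and differed from poorly differentiated ones by -0.19 ± 0.13 and +0.05 ± 0.14 (adjusted p = 0.448 and 0.886). Ivl, although without overlap between the grades, differed by -0.95 ± 0.30 and did not pass (adjusted p = 0.0983). The members with the widest gaps were those that some poorly differentiated tumors had kept. S100a14 was 4.29 to 5.13 in undifferentiated or spindle tumors, against 11.73, 11.10 and 5.17 in p53 tumors 2, 4 and 5, a difference of -4.72 ± 1.23 (adjusted p = 0.0536). Sprr1a was 4.46 to 6.88, against 12.20, 9.98 and 5.49, a difference of -3.88 ± 1.25 (adjusted p = 0.104). Crct1, Flg and Rptn differed by -2.09, -2.11 and -2.66 and did not pass.

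The counts by grade depended on p53 tumor 5, the tumor with low Krt5 and Krt14. Without it, and so with 2 poorly differentiated tumors, 8 members were lower in undifferentiated or spindle tumors, against 5.51% of all genes. They were S100a14 (-6.80 ± 0.25, adjusted p = 5.93e-06), Sprr1a (-5.75 ± 0.75, adjusted p = 0.00375), Rptn (-3.97 ± 0.92, adjusted p = 0.04), Sprr1b (-3.18 ± 0.40, adjusted p = 0.00312), S100a3 (-2.36 ± 0.24, adjusted p = 0.00108), Sprr2h (-1.89 ± 0.14, adjusted p = 0.000219), Ivl (-1.25 ± 0.30, adjusted p = 0.0463) and Hrnr (-0.56 ± 0.10, adjusted p = 0.0181). S100a13 was then the single higher member (+1.15 ± 0.22, adjusted p = 0.0183), and S100a4 did not pass. These genes were named, and p53 tumor 5 was singled out, after their values were seen. For each of the 8 lower members it was the lowest poorly differentiated tumor, so its removal could only widen those differences.

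Some regulators of the complex also changed with grade. Of the 23 measured, 5 were lower in undifferentiated or spindle tumors (Grhl1, Ovol1, Tfap2c, Zfp750 and Vdr) and 3 higher (Fosl1, Maf and Arnt). Grhl1 averaged 4.23 ± 0.17 in undifferentiated or spindle tumors and 9.82 ± 0.24 in poorly differentiated ones (-5.59 ± 0.14, adjusted p = 5.56e-07). Zfp750 differed by -3.16 ± 0.22 (adjusted p = 0.000115). Fosl1, a subunit of the AP-1 factor, averaged 9.58 ± 0.85 in undifferentiated or spindle tumors and 5.22 ± 0.27 in poorly differentiated ones, a difference of +4.36 ± 0.47 (adjusted p = 0.00103). The other AP-1 subunits of the list, Fosl2, Fos, Jun and Junb, did not pass.

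Each grade was also set against control skin, in a fit that shared the spread over all arrays, and the same 4 control skins served both comparisons. In poorly differentiated tumors 17 members were lower and 1 higher (8.40% and 6.38% of all genes). The higher one was S100a3, a protein of the hair cuticle, at 6.29, 6.92 and 4.36 in p53 tumors 2, 4 and 5 against 3.94 to 4.32 in control skin (+1.67, adjusted p = 0.0328). It was named after its values were seen, and its call was lost without p53 tumor 2, p53 tumor 4 or any control skin. The Crct1 and Flg calls were lost without p53 tumor 4 or 5, and that of Flg also without control skin 1 or 4. In undifferentiated or spindle tumors 21 members were lower and 2 higher (12.5% and 11.6% of all genes).

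Sprr1a, Rptn, S100a14 and S100a16 were lower than in control skin in undifferentiated or spindle tumors and did not pass in poorly differentiated ones. S100a14 differed from control skin by -6.42 ± 1.17 in undifferentiated or spindle tumors (adjusted p = 0.00146) and by -1.70 in poorly differentiated ones (adjusted p = 0.514), and Sprr1a by -5.80 ± 1.16 (adjusted p = 0.00285) and by -1.91 (adjusted p = 0.444). The direct comparison of the grades did not pass for either gene, as given above. S100a8 and S100a9 were higher in undifferentiated or spindle tumors than in control skin, by 3.95 ± 1.14 (adjusted p = 0.0259) and 3.77 ± 1.24 (adjusted p = 0.047). Rptn differed by -3.85 ± 1.05 in undifferentiated or spindle tumors (adjusted p = 0.0189), and its call was lost without control skin 2 or 4 (adjusted p = 0.0618 and 0.0646). The S100a8 call was lost without control skin 1, 2 or 3 or pRbp53 tumor 2, and the S100a9 call without any of these or without control skin 4, p53 tumors 1 or 3 or pRbp53 tumors 3 or 5. In poorly differentiated tumors they differed by +2.60 and +1.71 and did not pass.

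The comparison of genotypes asked whether loss of pRb in addition to p53 altered the complex. Between pRbp53 and p53 tumors, 0 of 43 members passed in limma at an adjusted p under 0.1, where 0.159% of all genes did. At an unadjusted p under 0.05 there were 3 members, against 10.6% of all genes, and all were lower in pRbp53 tumors: S100a14 (-3.40 ± 1.37, adjusted p = 0.469), Sprr1a (-2.85 ± 1.21, adjusted p = 0.5) and Sprr1b (-1.90 ± 0.81, adjusted p = 0.503). Sprr1a was 4.69, 4.70, 4.46, 5.40 and 5.80 in pRbp53 tumors 1 to 5, against 4.96, 12.20, 6.88, 9.98, 5.49, 5.48 and 10.06 in p53 tumors 1 to 7. The p53 tumors above the pRbp53 range were tumors 2, 3, 4 and 7. All 3 poorly differentiated tumors were p53 tumors. Among the undifferentiated or spindle tumors alone (4 pRbp53 and 2 p53 tumors), and with histology as a covariate, 0 members passed between the genotypes. By grade within the p53 tumors alone (2 undifferentiated or spindle and 3 poorly differentiated tumors), S100a4 no longer passed (+2.93, adjusted p = 0.397) and 0 members did. The number of arrays limits the differences that could be found.

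Among the single tumors, p53 tumor 7, of mixed histology, was the highest of the 12 for 25 of the 43 members. It was the highest tumor for 13.7% of all genes. The poorly differentiated p53 tumor 2 and the undifferentiated or spindle p53 tumor 6 were each the highest tumor for 6 members (5.97% and 9.25% of all genes). Above all control skins, p53 tumors 2 and 7 lay for 14 members each, a share near that of all genes (33.9% for p53 tumor 2 and 37.2% for p53 tumor 7).

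In p53 tumor 7 the 14 members above control skin included 3 of the 4 Lce3 genes and 6 of the 9 Sprr genes. The same Lce3 genes were above all control skins in p53 tumor 2. There Lce3a, Lce3c and Lce3f lay 0.96, 0.43 and 1.90 above the control mean, against 1.73, 1.33 and 5.42 in p53 tumor 7. Lce3a was above all control skins in every tumor but pRbp53 tumors 2 and 5, and Lce3c also in p53 tumor 1 and pRbp53 tumor 4. Most of these steps were small. Over the highest control skin, Lce3a lay 1.58 and 0.80 higher in p53 tumors 7 and 2, and 0.01 to 0.24 higher in the others. For Lce3c the step was 0.01 in p53 tumor 1 and 0.13 in pRbp53 tumor 4. Lce3a is a dim member and did not pass between tumors and control skin (+0.40 ± 0.24, limma adjusted p = 0.317). Many Sprr genes, and in human skin the LCE3 genes, are induced when the barrier is damaged. Lce3f stood at 9.98 in p53 tumor 7 and between 4.41 and 6.46 in the other 11 tumors, against 4.77, 4.51, 4.49 and 4.45 in control skins. Sprr2f stood at 7.73 in p53 tumor 7 and between 2.86 and 3.24 in the other 11 tumors, against 3.12 to 3.29 in control skins. Sprr2i reached 8.09, Sprr2d 10.15 and Sprr2h 9.74 in p53 tumor 7, against at most 3.69, 5.97 and 6.20 in control skins. These 4 Sprr2 genes lay 4.09 to 4.57 above the control mean, and their promoters carry the AP-1 motif at the place shown above. Sprr2k, whose promoter carries it too, was 6.12 in p53 tumor 7, within the range of control skin. The part of the motif in these values was not tested. The Sprr2 genes are close copies, and their probesets may bind each other's transcripts.

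Sprr1b reached 8.35 in p53 tumor 7, 7.38 in p53 tumor 4 and 6.40 in p53 tumor 2, and lay between 3.30 and 4.63 in the other tumors and between 3.61 and 5.62 in control skins. The stress keratins Krt6b and Krt16 were 12.2 and 11.9 in p53 tumor 7, against at most 6.4 and 7.7 in control skins. Of the same list of stressed keratinocyte genes, Krt6a, Krt17 and Slpi were also above every control skin in this tumor. Il1f9 and Serpinb2, at 5.60 and 8.89, were below every control skin. Krt5 and Krt14 were 13.7 and 13.6. The same tumor kept part of the signal of envelope and fused-type genes. Lce1f was 8.93 (3.12 to 3.92 in the other 11 tumors, 10.56 to 10.92 in control skin), Hrnr 7.43, Lor 8.73 and Ivl 7.56, all below every control skin. Its RNA was the most broken by the actin measure, at 1.67, and the part of this in its values was not tested. These values rest on 1 array and carry no test, and the genes outside the rule for named members were chosen after their values were seen.

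**Figure D5:**
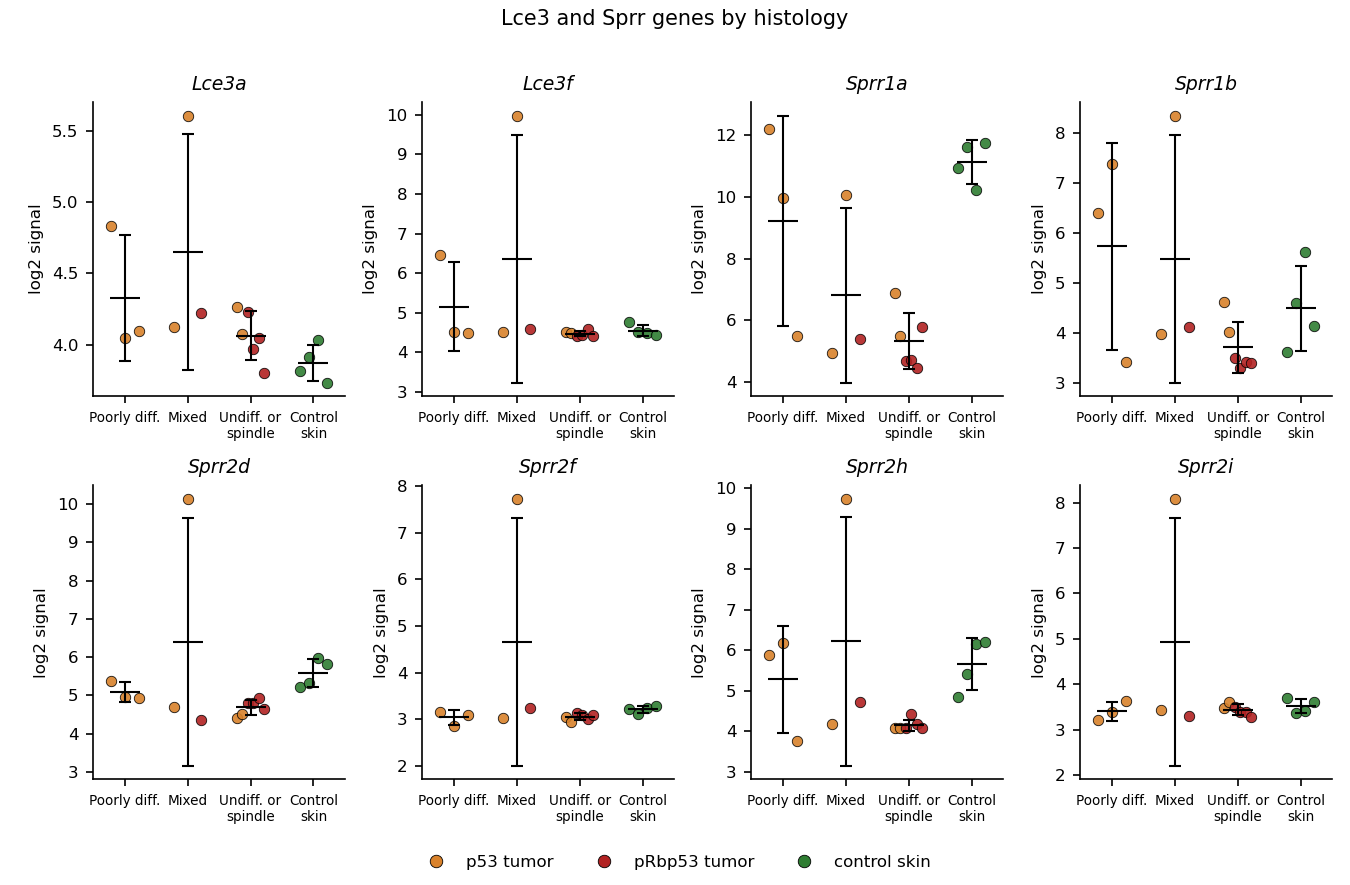
Log2 signal of 8 Lce3 and Sprr genes by histology, tumors at the left and control skin at the right; points are single arrays coloured by genotype, and lines are the mean ± SD. One mixed p53 tumor, number 7, stands far above all other arrays for Lce3f (9.98), Sprr2d (10.15), Sprr2f (7.73), Sprr2h (9.74) and Sprr2i (8.09).

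In p53 tumor 2, Sprr1a was 12.20, Rptn 9.18 and S100a14 11.73, each above all control skins, and Flg was 8.94, while Lor (6.69), Hrnr (3.52) and Lce1c (3.66) were far below them. With p53 tumors 2 and 7 both left out, a step chosen after seeing the data, S100a8 no longer passed and 0 members were higher in tumors. The 18 lower members all passed again, and Rptn, S100a14, S100a16, Sprr2d and Sprr2h were lower as well, so that 23 members were lower. For Rptn, S100a14 and S100a16 p53 tumor 2 was the highest tumor, and for Sprr2d and Sprr2h p53 tumor 7 was. Their removal could only move those differences further down, so the added calls are no separate support.

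The dim members limit what the arrays could show. Of the 43 members 21 had a mean below the median probeset, and 4 spanned less than 1 on the log2 scale over all 16 arrays, so a small difference in these could be missed.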

How the data were processed

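Total RNA of 16 samples was hybridised to 16 Affymetrix MOE430 2.0 arrays. The authors processed the arrays with RMA (background correction, quantile normalization, summary of the probes of each probeset; version not given in the sources used here), and deposited log2 signals. Of 45101 probesets, 64 array controls were left out and 45037 tested. The platform annotation (2016) named 1 symbol for 34945 of them, several for 932 and none for 9160, and 3 probesets of several Sprr2 genes were not used.

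Linear models were fitted to all probesets with limma 3.58.1 in R 4.3.3, with two-sided p-values adjusted by Benjamini-Hochberg over 45037 probesets. The threshold was 0.05, or 0.1 for the genotypes. Shares of all genes called are over 18193 genes, each read from its highest probeset, and errors are the SE for differences and the SD for means. The fits were tested on simulated data. No source says that samples of a group came from separate animals, so p-values measure the spread between these samples.

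Members and gene lists were chosen with earlier results of these data known. Members described array by array were, for each family, up to 3 with the largest difference between tumors and control skin, those higher in tumors, up to 6 with the largest difference by grade, those past the genotype threshold, and Lor, Ivl, Flg, S100a4, S100a6, S100a8, S100a9 and S100a10. Replicate numbers did not pair the samples: 3 of 13 same-numbered pairs had deviations that correlated above 0.1. Trp53 is not reported here. Promoters are from RefSeq GRCm38.p6. Figures were drawn with matplotlib 3.10.9.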

Additional observations from a re-analysis of the deposited data

Results flagged for a closer look

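For the named members, 54 groups of 4, 5 or 7 samples were examined for 1 array far from the rest by Dixon's criterion, and 9 groups had one; chance marks about 1 group in 20. In p53 tumors, tumor 7 stood above the others for 5 members: Hrnr at 7.43 (others 2.96 to 3.52), Lce1a2 at 7.58 (4.77 to 5.21), Lce1c at 7.31 (3.13 to 3.66), Lor at 8.73 (5.78 to 6.69) and Sprr2h at 9.74 (3.76 to 6.19). Flg in p53 tumor 2 was 8.94, against 2.86 to 5.31 in the other p53 tumors. S100a6 in p53 tumor 5 was low, at 9.99, against 12.8 to 13.7. In pRbp53 tumors, Crct1 was 6.81 in tumor 5, against 4.77 to 4.95, and S100a4 was 9.23 in tumor 4, the mixed one, against 12.5 to 13.8.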

How the results depend on the processing

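The 18 lower members of tumors against control skin stayed within 1.5 times that count under every alternative (15 to 21 with 1 array left out), and no result reversed except one Rptn value given below. The other counts were small. The higher count of 1 became 0 with the replicate block, at an adjusted p of 0.01, with actin as a covariate, with the arrays of broken RNA left out, with control skins 2 and 4 averaged, with pRbp53 tumors alone and without p53 tumors 2 and 7; it was 3 with array weights, 2 by Welch's test and 0 to 2 with 1 array left out. For grade, the lower count of 0 became 2 among brighter probesets and in the one-way fit, 1 with an intensity trend, 6 with array weights and 0 to 8 with 1 array left out (8 without p53 tumor 5, 1 without pRbp53 tumor 3). The higher count of 1 became 0 with the replicate block, at 0.01, by Welch's test, with the actin covariate and in p53 tumors alone, and was 0 to 1 with 1 array left out. For poorly differentiated tumors against control skin, the lower count of 17 became 11 among brighter probesets, where dim members were not tested, and 13 to 19 with 1 array left out; the higher count of 1 became 0 with the replicate block, brighter probesets, 0.01, Welch's test, the arrays of broken RNA out, control skins averaged or only these groups fitted, and was 0 to 1 with 1 array left out. For undifferentiated or spindle tumors against control skin, the lower count of 21 became 13 among brighter probesets and 19 to 23 with 1 array left out; the higher count of 2 became 0 at 0.01, 1 without the arrays of broken RNA, 1 with control skins averaged, 3 with array weights, by Welch's test and with the 2 groups alone, and 0 to 2 with 1 array left out. There the Rptn call was also lost with the replicate block, by Welch's test, with control skins averaged, at 0.01 and with its probeset of highest median (+0.04, adjusted p = 0.815), and its probeset was not tested among brighter ones. The genotype counts stayed at 0. Other causes were not tested.

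With the replicate block, S100a8, Sprr1a and Sprr2k lost their calls between tumors and control skin and Sprr2d gained one, so 17 members passed; since the numbers did not pair the samples, this is no measure of a weaker effect. Leaving out the arrays of broken RNA gave no value for grade, which holds neither.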
